A study of Homo sapiens with 6 samples.

Results

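The genes described here encode the collagens and laminins, the enzymes that cross-link and cut them, the inhibitors of those enzymes, and a few adhesive glycoproteins of the same matrix. They were taken by symbol from the protein-coding genes of the count table: every collagen chain, laminin chain, MMP, TIMP, ADAMTS or ADAMTSL gene and lysyl oxidase, together with FN1, SPARC and the thrombospondins. The rule found 115 of the 34036 genes in the table, of which 17691 are protein coding. They comprise 44 collagen genes, 12 laminin genes, 6 genes of adhesive and matricellular glycoproteins, 5 lysyl oxidases, 20 MMPs, 4 TIMPs and 23 genes of the ADAMTS family. The remaining gene, COL4A3BP, has a collagen name in its symbol but encodes the ceramide transfer protein. It was kept in the 115 and is not described as a collagen.

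Collagens and laminins are trimers of separate chains that are assembled inside the cell and secreted. Type IV collagen and laminins form the sheet of the basement membrane, while fibrillar collagens such as type I form the fibres that accumulate in a scarred liver. Matrix metalloproteinases (MMPs) and ADAMTS proteases cut matrix proteins, TIMPs block MMPs, and lysyl oxidases cross-link collagen and elastin.

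The libraries were made from RNA of HepG2, an established human line from a hepatocellular carcinoma. The labels name the molecule polyA RNA, but their protocol does not settle between polyA selection and removal of ribosomal RNA. Cells were transfected with RNAiMAX and either a non-targeting siRNA (siCON, labelled siControl, n = 3) or an siRNA pool against DGUOK (siDGk, labelled siDGUOK, n = 3), and RNA was collected after 48 h. DGUOK encodes deoxyguanosine kinase, which phosphorylates purine deoxynucleosides in mitochondria. The comparison of siDGk with siCON asks which transcripts differ after acute loss of DGUOK. All cells were from this 1 line and both groups were transfected, so untransfected cells are not part of the comparison. The gene tables held 19065684, 18915508 and 10527216 counts in siCON replicates 1 to 3 and 18613138, 15978314 and 21334876 counts in siDGk replicates 1 to 3.

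The targeted gene was measured first. DGUOK stood at 54.7, 53.5 and 48.5 counts per 1000000 (CPM, on library sizes scaled by TMM) in the siCON libraries and at 9.12, 10.5 and 6.69 CPM in the siDGk libraries. All 3 siDGk libraries lay below all 3 siCON libraries, in the direction their titles give. The log2 fold change was −2.58 ± 0.19 (SE), with an adjusted p of 1.4e-08 in edgeR's quasi-likelihood test with Benjamini-Hochberg adjustment over all genes tested. A gene is called higher or lower below at an adjusted p under 0.05 in this test and an absolute log2 fold change over 0.5. Over all 14476 genes in this test the share called was 14.0% (7.14% higher, 6.90% lower), and the counts below are read beside these shares.

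Before the results, some siDGk libraries stood apart from each other. In a principal component analysis of all tested genes, siCON replicates lay at −48.3, −57.2 and −46.7 on the first component and siDGk replicates 1 to 3 at 30.6, 55.0 and 66.6. On the second component siDGk replicates 2 and 3 lay at −61.2 and 63.6, with siDGk replicate 1 at −12.1 and the siCON libraries at 1.65 to 4.38. In some matrix genes, and in others of the table, it was siDGk replicates 1 and 2 that stood apart from the other libraries. COL3A1, a fibrillar collagen chain, had 0, 1 and 0 counts in the siCON libraries and 148, 254 and 9 counts in siDGk replicates 1, 2 and 3. COL4A1, a chain of basement-membrane collagen, had 108 and 166 counts in siDGk replicates 1 and 2 and 0 counts in the other 4 libraries. COL6A3 had 7, 0 and 3 counts in siCON and 119, 153 and 0 counts in siDGk. For COL4A1 and COL6A3 siDGk replicate 3 therefore resembled the siCON libraries and not the other siDGk libraries. For COL3A1 it lay above the siCON libraries but far below the other siDGk libraries. By a rule set after these values were seen (over 3 counts in both siDGk replicates 1 and 2, which together held at least 80% of the summed CPM), 12 of the 93 members with over 3 counts in any library had this pattern. The same rule found 430 of 21286 genes of the whole table, or 2.02%, against 12.9% of the members. Besides the 3 named they were COL1A2, COL4A2, COL5A1, COL8A1, COL14A1, LAMA2, LAMA4, MMP1 and ADAMTS12. Only 3 of the 12, COL1A2, COL4A2 and MMP1, passed the filter on low counts, and none of those was called. Whether RNA of other cells had reached siDGk replicates 1 and 2 was not tested, so the counts of these 12 genes are uncertain as a measure of the siDGk cultures.

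**Figure D1:**
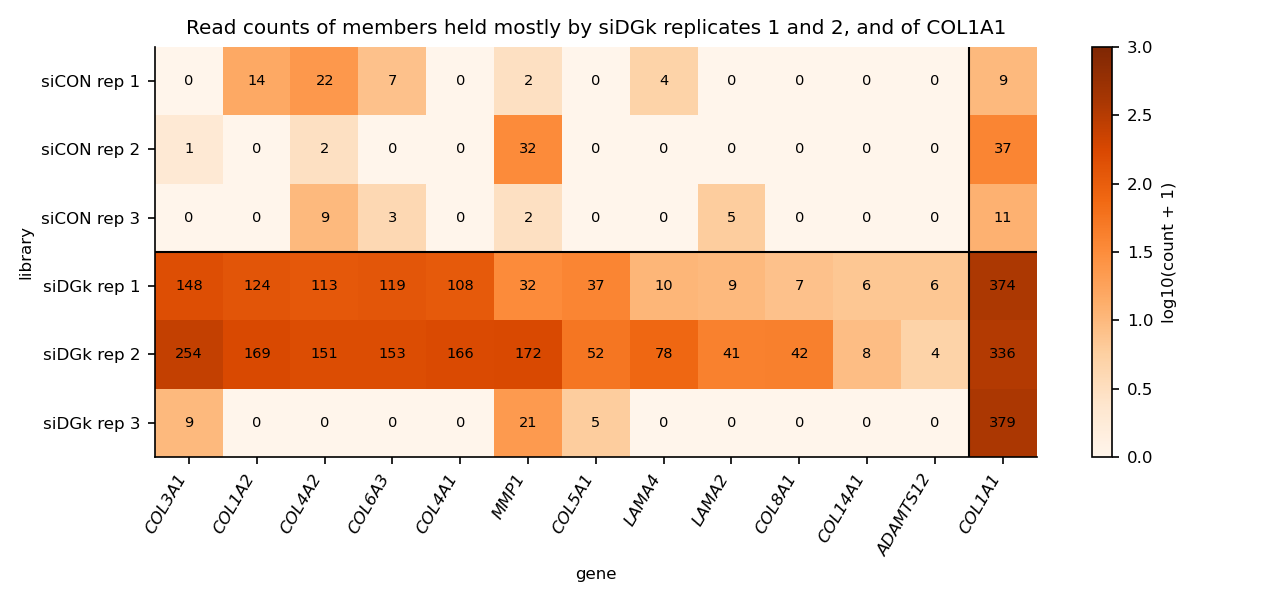
Read counts in each library (rows) of the 12 members held mostly by siDGk replicates 1 and 2 (columns), and of COL1A1 at the right; the colour is log10(count + 1). COL4A1 has 108 and 166 counts in siDGk replicates 1 and 2 and 0 elsewhere, whereas COL1A1 has 374, 336 and 379 counts in the 3 siDGk libraries.

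The number of genes with any count also differed, at 21057 in siDGk replicate 1 against 16205 to 17583 in the other 5 libraries. Of the 115 members, 88 and 80 had a count in siDGk replicates 1 and 2, 62 in siDGk replicate 3, and 61 to 68 in the siCON libraries. Counts of called genes were therefore also taken with siDGk replicate 3 as the lone siDGk library, which is assumed to vary like the siCON libraries, and without siDGk replicate 3. With all 6 libraries 7 members were called higher and 15 lower. Without siDGk replicate 3 the counts were 14 and 13, where 12.3% of all fitted genes were called. With siDGk replicate 3 alone the median log2 fold change was −0.25 over the members and −0.035 over all fitted genes.

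Markers of the cells that make most fibrillar collagen in liver were read beside this. The list of stellate cell and fibroblast markers summed to 83.5, 78.2 and 75.1 CPM in siCON and to 313, 335 and 367 CPM in siDGk, with no overlap. Of its 12 genes, 4 were tested, 2 were higher and 1 was lower (all genes: 7.14% and 6.90%), and the most abundant was NGFR, a neurotrophin receptor, which rose from 470, 323 and 221 counts to 4642, 4406 and 6434. Without NGFR the list summed to 58.3, 60.8 and 53.9 CPM in siCON and 61.3, 64.9 and 72.0 CPM in siDGk, so nearly all of the difference was NGFR. TAGLN was higher at 0.86 ± 0.22, though not called without siDGk replicate 3. PDGFRB was lower at −1.03 ± 0.32, a call that did not hold in 5 of the 6 fits that left out a library (all but that without siDGk replicate 2), and ACTA2 stood at −0.19 ± 0.18 and was not called. DCN, which encodes the collagen-binding proteoglycan decorin, had 21 and 26 counts in siDGk replicates 1 and 2 and 0 in the other 4 libraries, and LUM had 3 and 20 there and likewise 0 elsewhere. THY1 had no count in any library. Over siDGk replicates 1, 2 and 3 PDGFRA had 0, 15 and 0 counts, FAP 16, 0 and 0, and LRAT 7, 0 and 11, with 0 in siCON. RGS5, unlike these, was counted in every siCON library, at 11, 8 and 4 counts against 8, 61 and 0 in siDGk. So NGFR was high in every siDGk library, while DCN, LUM, PDGFRA, FAP and RGS5 had no count in siDGk replicate 3, and LRAT had none in siDGk replicate 2. The endothelial list, of which 11 of 12 genes were in the table, summed to 18.4, 17.5 and 20.6 CPM in siCON and to 92.1, 197 and 133 CPM in siDGk. Of its 7 tested genes edgeR called 3 higher (7.14% of all genes) and 0 lower, with 0 lower at an unadjusted p under 0.05 and 0 lower by DESeq2, and the most abundant was the receptor gene TIE1. Without TIE1 it summed to 5.04, 5.37 and 10.6 CPM in siCON and 28.7, 98.8 and 30.6 CPM in siDGk, and with siDGk replicate 3 alone 1 of its genes was called higher.

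VWF, the endothelial clotting factor, had 510 counts in siDGk replicate 2 and 0 to 26 in the other 5 libraries, and STAB2 had none in any. KDR had 13 and 38 counts and ERG 2 and 21 counts in siDGk replicates 1 and 2, and both had 0 in the other 4 libraries, as DCN and LUM did. In contrast, LYVE1 and ROBO4 were called higher with TIE1 and were high in every siDGk library. LYVE1 had 29, 7 and 59 counts in siCON and 287, 402 and 419 in siDGk. ROBO4 had 18, 41 and 21 counts against 152, 169 and 157. LYVE1 was not called without siCON replicate 1 or without siDGk replicate 3. Leukocyte markers summed to 1623, 1718 and 1715 CPM in siCON and 1912, 1751 and 1762 CPM in siDGk, nearly all of it LYZ, with MARCO at 0. Of its 6 tested genes edgeR called 0, with 0 at an unadjusted p under 0.05, and DESeq2, run without the count filter, called 1 gene of the list lower (CD163). PTPRC, at 1.75 ± 0.84 and not called, was called higher by edgeR with the replicate block and without siCON replicate 2. Apart from LYZ, leukocyte markers were scarce in all 6 libraries. Cholangiocyte markers summed to 1423, 1665 and 1679 CPM against 2895, 3063 and 3247 CPM, led by KRT19, with 1 of 6 tested genes higher, 1 lower (all genes: 7.14% and 6.90%) and none at 0 in all libraries. Without KRT19 the sum was 687, 690 and 695 CPM in siCON and lower in siDGk, at 578, 524 and 496 CPM. Hepatocyte markers, led by ALB, fell in sum from 69503, 65203 and 62842 CPM to 38398, 34131 and 32321 CPM, and 12 of 14 were called lower (6.90% of all genes), so transcripts of the liver cell itself were present in every library and lower in siDGk. In bulk RNA, fewer cells of a type and less RNA per cell cannot be told apart. The part of these marker changes in the matrix results was not tested.

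**Figure D2:**
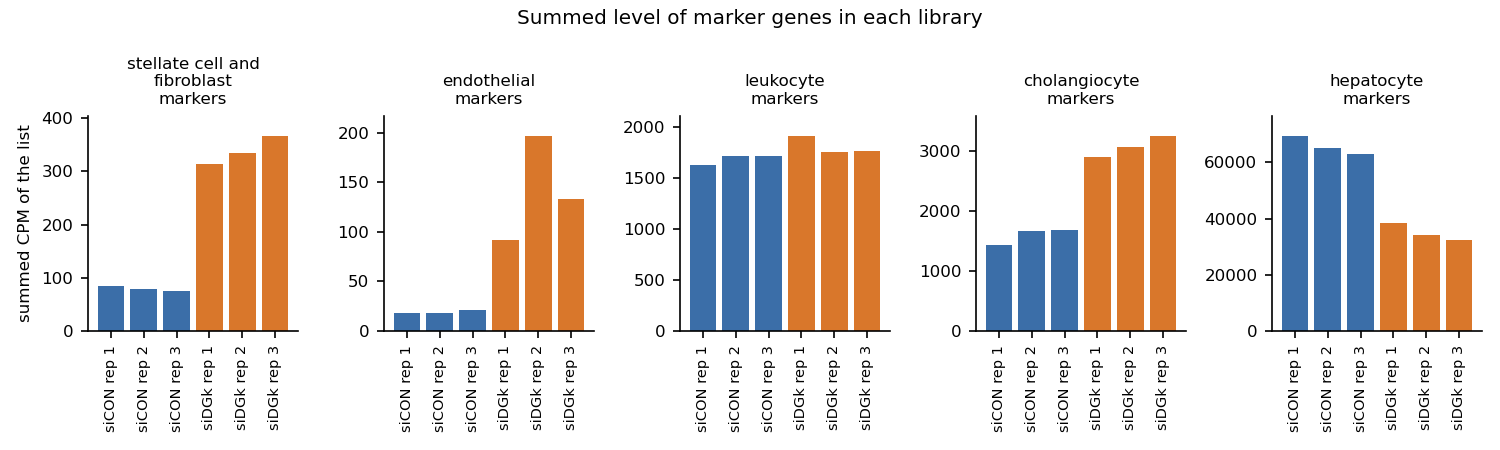
Summed CPM of the genes of each marker list (vertical axis, from 0, a scale for each list) in the 3 siCON (blue) and 3 siDGk (orange) libraries. Stellate cell and fibroblast, endothelial and cholangiocyte sums are above siCON in every siDGk library, leukocyte sums are too but by less (1751 to 1912 against 1623 to 1718 CPM), and hepatocyte sums are below.

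Matrix genes were called in both directions after DGUOK knockdown. In most fits more were called lower than higher, but the counts were equal with no count filter, and more were called higher without siDGk replicate 3. Of the 115 members, 63 passed the filter and were tested, 30 had over 3 counts in at least 1 library but were not tested, 4 had at most 3 counts, and 18 had no count in any library. A count of 0 allows up to 3 counts, which is 0.137 to 0.287 CPM depending on the library. Among the 63 tested, 22 were called (34.9%), beside 14.0% of the 14476 genes tested. There were 7 called higher, where 7.14% of all genes were called higher, and 15 called lower, where 6.90% were. The counts higher and lower were 14 and 13 without siDGk replicate 3, where 12.3% of all fitted genes were called. They were 12 and 15 with DESeq2 (8.65% of all fitted genes called) and 14 and 14 with no count filter (8.8%). The groups did not overlap for 31 of the 63, with siDGk above in 13 and below in 18, beside 35.8% of all genes. The median log2 fold change was 0.032 over the tested members and 0.0068 over all tested genes, but it moved with the fit. It was 0.30 over the members and 0.13 over all fitted genes with DESeq2, 0.32 and 0.14 with no count filter, and −0.25 and −0.035 with siDGk replicate 3 alone. The tested members exclude most of the lowly counted ones and do not stand for all 115.

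**Figure D3:**
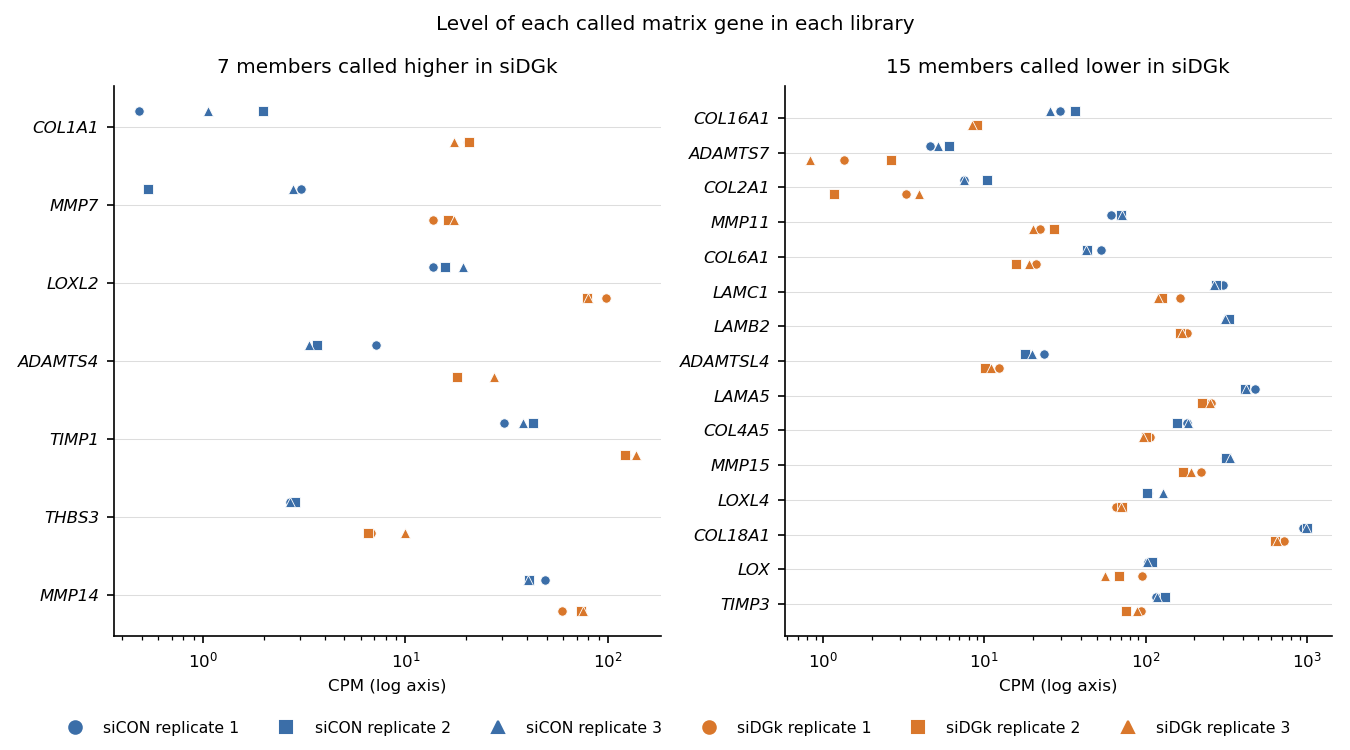
CPM on a log axis of the 22 called members in each library, with siCON in blue and siDGk in orange and a symbol for each replicate. In every called member the 3 siDGk libraries lie on one side of the 3 siCON libraries, from COL1A1 (0.483 to 1.99 against 17.4 to 20.6 CPM) to MMP14 (40.2 to 49.0 against 59.3 to 75.5 CPM).

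Among the collagens, COL1A1 showed the largest called change. COL1A1, the alpha-1 chain of type I collagen (GRCh38 chromosome 17, 50184101 to 50201632, minus strand), was at 0.483, 1.99 and 1.05 CPM in siCON and at 20.3, 20.6 and 17.4 CPM in siDGk. The 3 siDGk libraries were close to each other and far above siCON, replicate 3 included. The log2 fold change was 4.03 ± 0.39 (SE), higher in 3 of 3 siDGk libraries, with an adjusted p of 5.5e-07 in edgeR's quasi-likelihood test with Benjamini-Hochberg adjustment. With a library left out it ran from 3.63 (without siCON replicate 1) to 4.76 (without siCON replicate 2, the control library with the most COL1A1), and it was 2.51 with shrunken fold changes in DESeq2. Even so its level per length stayed low, at 2.16 RPKM (CPM per kilobase of exon) in siDGk. COL1A2, which supplies the partner chain of type I collagen, was at 0.751, 0 and 0 CPM in siCON and 6.74, 10.4 and 0 CPM in siDGk. The groups overlapped, since siDGk replicate 3 had 17.4 CPM of COL1A1 and no count of COL1A2, and COL1A2 was not called, though it was under 2 of 14 alternatives.

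Of the 3 most abundant collagens, COL18A1 was called lower and the other two were not called. Per length they were COL9A3 (114 RPKM over all libraries), COL18A1 (97.4 RPKM) and COL9A2 (13.6 RPKM). COL18A1, whose basement-membrane collagen is the source of endostatin, was at 948, 1003 and 986 CPM in siCON and at 723, 638 and 649 CPM in siDGk. Its groups did not overlap, and it fell by 0.55 ± 0.07 on the log2 scale, although 18.5% of its exon bases overlap a gene on the opposite strand, which makes its counts less certain. COL9A3, a chain of the fibril-associated type IX collagen, stood at 480, 467 and 469 CPM against 682, 635 and 581 CPM. It passed the adjusted p but, at a log2 fold change of 0.42 ± 0.08, not the fold threshold, and COL9A2 from the same trimer overlapped between groups at −0.15 ± 0.13.

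COL16A1, COL6A1 and COL2A1, at lower levels, were called with larger decreases than COL18A1, but other collagens at low levels were not called. Among these, COL5A2 and COL7A1 stood at 0.63 and 0.34, and COL26A1 and COL17A1 at −1.77 and −1.11. COL16A1, another fibril-associated collagen, had 29.6, 36.4 and 25.4 CPM in siCON and 9.07, 9.07 and 8.34 CPM in siDGk, a log2 fold change of −1.79 ± 0.21. COL6A1, a chain of the beaded-filament collagen VI (chromosome 21, 45981770 to 46005050), had 53.0, 43.6 and 42.5 CPM against 20.9, 15.8 and 19.0 CPM, and its log2 fold change was −1.32 ± 0.17. Both genes were therefore lower in every siDGk library than in any siCON library. The other collagen VI chain tested, COL6A2, had 3.92, 2.95 and 5.37 CPM against 8.42, 5.46 and 1.24 CPM, with overlap and no call. COL2A1, the cartilage fibrillar collagen, had 7.51, 10.4 and 7.47 CPM against 3.26, 1.17 and 3.94 CPM (log2 fold change −1.59 ± 0.44). Its call did not hold without siCON replicate 2, where the log2 fold change was −1.41, or with siDGk replicate 3 alone.

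The chains of collagen IV, the network of the basement membrane, differed by pair. COL4A5 and COL4A6 lie head to head on the X chromosome, with annotated starts 341 bases apart. COL4A5 was at 179, 157 and 184 CPM in siCON and 107, 101 and 96.5 CPM in siDGk, a log2 fold change of −0.77 ± 0.10 with an adjusted p of 8.6e-06 in edgeR's quasi-likelihood test with Benjamini-Hochberg adjustment. COL4A6 had 48.0, 46.7 and 41.7 CPM against 30.1, 41.3 and 40.1 CPM. It too lay lower in every siDGk library, though its log2 fold change of −0.29 ± 0.15 was not called. COL4A1 and COL4A2, head to head on chromosome 13, were the pair counted mostly in siDGk replicates 1 and 2, COL4A2 at 113, 151 and 0 counts in siDGk and 22, 2 and 9 in siCON. COL4A3 and COL4A4 had at most 3 and 4 counts in any library. Of all 44 collagen genes, 20 were tested, 1 was called higher and 5 lower (30.0% called, beside 14.0% of all genes, of which 7.14% higher and 6.90% lower), and 8 had no count, among them COL5A3, COL9A1 and COL23A1. The count called higher depended on siDGk replicate 3 and on the filter. Without that library it was 7 (COL1A1 with COL1A2, COL3A1, COL4A1, COL4A2, COL5A1 and COL6A3), with DESeq2 it was 4 and with no count filter 6, while 5 were lower in each. With siDGk replicate 3 alone 1 was higher and 4 were lower.

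**Figure D4:**
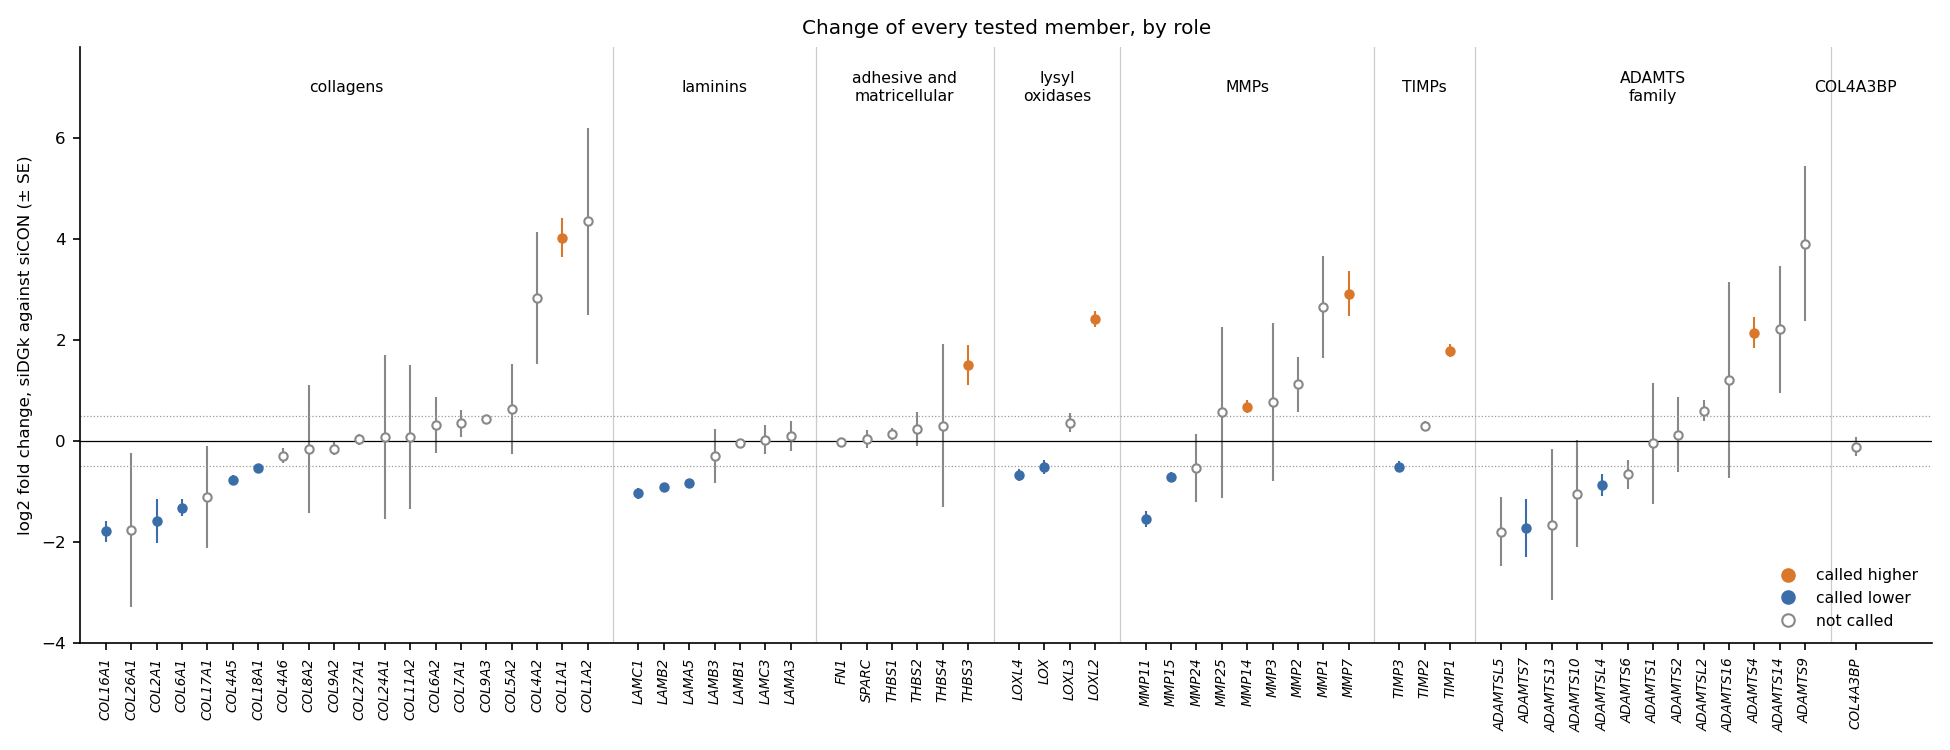
The log2 fold change of each of the 63 tested members (siDGk against siCON, points, with bars of 1 SE), grouped by role; filled points are called, open points are not, and dotted lines mark the fold threshold of 0.5 in each direction. COL1A1 at 4.03 and MMP7 at 2.91 are the highest called members and COL16A1 at −1.79 the lowest.

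Laminin chains of a single trimer fell together while an alternative chain did not. Laminins combine an alpha, a beta and a gamma chain. Per length the 4 most abundant here were LAMB2, LAMC1, LAMA5 and LAMB1, at 35.8, 24.8, 23.8 and 22.7 RPKM. By mean CPM over all libraries LAMB1 was the most abundant, at 422 CPM. LAMA5, the alpha chain common in adult epithelial basement membranes, was at 475, 415 and 417 CPM in siCON and 255, 225 and 252 CPM in siDGk. It was lower in each siDGk library. LAMC1, the gamma chain of most laminins, was at 303, 274 and 267 CPM against 164, 127 and 120 CPM. LAMB2, a beta chain, was at 321, 331 and 310 CPM against 181, 163 and 169 CPM. For these 3 chains no siDGk library reached the lowest siCON library. Their log2 fold changes were −0.84 ± 0.08, −1.04 ± 0.11 and −0.91 ± 0.08, with adjusted p-values of 7.1e-07, 9.9e-07 and 1.5e-07 in edgeR's quasi-likelihood test with Benjamini-Hochberg adjustment.

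LAMB1, the other beta chain that joins LAMA5 and LAMC1, was at 422, 462 and 401 CPM in siCON and 378, 421 and 450 CPM in siDGk. These groups overlapped, and the log2 fold change was −0.04 ± 0.08. LAMB2 accordingly made up 67.3%, 66.0% and 67.7% of the 2 beta chains per length in siCON and 56.4%, 51.1% and 50.4% in siDGk, a share that did not overlap. The lengths, of all annotated exons, were 18592 bases for LAMB1 and 6865 for LAMB2. In CPM LAMB1 was above LAMB2 in every library, so which beta chain was more abundant depends on the length used. The difference between the changes of these beta chains was itself not tested. LAMA3, LAMB3 and LAMC3, at 0.627, 0.826 and 1.32 RPKM, overlapped between groups, and none was called. LAMA4 was counted but not tested, at 10, 78 and 0 counts in siDGk and 4, 0 and 0 in siCON, and LAMB4 had no count. In all, 3 of 7 tested laminin genes were lower and 0 higher by edgeR. The share called was 42.9%, beside 14.0% of all genes (7.14% higher and 6.90% lower). Without siDGk replicate 3, the laminins called were 3 lower and 1, LAMA4, higher. No tested laminin gene was higher at an unadjusted p under 0.05 either (0 of 7), and DESeq2 called the same 3 lower and 0 higher.

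**Figure D5:**
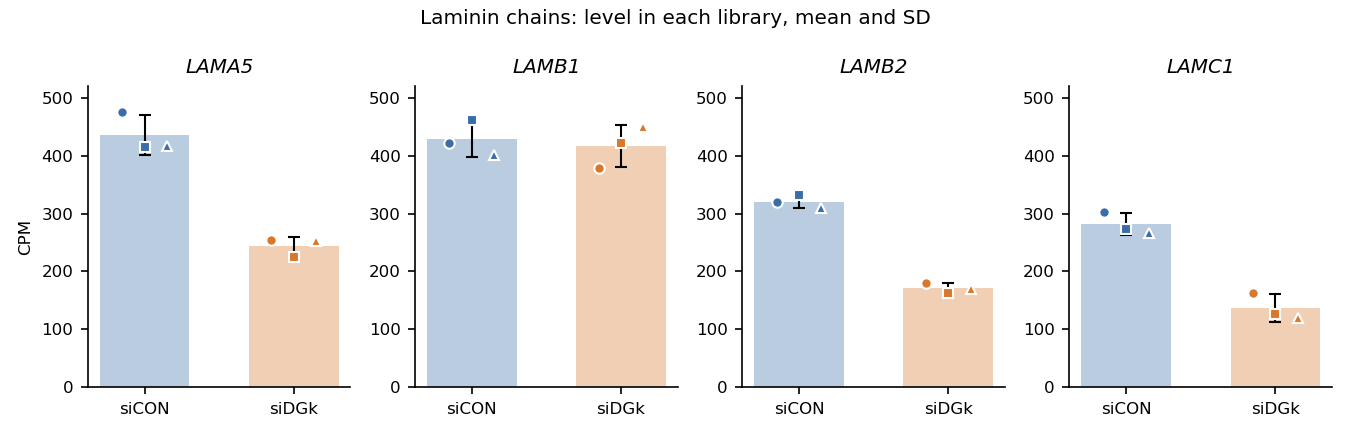
CPM of the 4 most abundant laminin chains in each library (points), with the mean of 3 libraries (bars, from 0) and its SD. LAMA5, LAMB2 and LAMC1 are lower in every siDGk library, while LAMB1 overlaps between 378 and 462 CPM.

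The promoters of the 3 chains that fell are shown because the genes moved together from separate chromosomes (20, 3 and 1). Each is the RefSeq sequence from 250 bases before to 50 after the start, build GRCh38.p14, with GGGCGG on either strand (the letters bound by SP1) in capitals: LAMA5 at chr20:62367263-62367562 on the minus strand, LAMB2 at chr3:49133001-49133300 on the minus strand, and LAMC1 at chr1:183023170-183023469 on the plus strand.
LAMA5: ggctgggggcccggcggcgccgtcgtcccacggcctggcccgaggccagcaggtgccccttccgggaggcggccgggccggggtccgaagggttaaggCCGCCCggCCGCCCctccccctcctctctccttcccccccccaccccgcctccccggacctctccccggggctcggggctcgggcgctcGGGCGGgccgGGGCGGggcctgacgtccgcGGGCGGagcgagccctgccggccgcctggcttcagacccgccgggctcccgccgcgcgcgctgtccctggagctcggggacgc
LAMB2: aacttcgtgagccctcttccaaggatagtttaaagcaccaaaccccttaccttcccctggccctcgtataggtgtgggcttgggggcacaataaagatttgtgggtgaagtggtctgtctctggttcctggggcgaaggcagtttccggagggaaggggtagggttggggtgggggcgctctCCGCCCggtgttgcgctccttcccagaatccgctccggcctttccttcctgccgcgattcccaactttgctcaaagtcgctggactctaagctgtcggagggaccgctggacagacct
LAMC1: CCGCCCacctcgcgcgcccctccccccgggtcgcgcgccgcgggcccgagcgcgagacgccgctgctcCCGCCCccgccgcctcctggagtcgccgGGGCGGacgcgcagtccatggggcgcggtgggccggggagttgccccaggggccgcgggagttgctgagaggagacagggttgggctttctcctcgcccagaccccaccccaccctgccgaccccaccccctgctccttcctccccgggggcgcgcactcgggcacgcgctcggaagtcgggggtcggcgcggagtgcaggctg
The script found 5, 1 and 3 matches, and GC made up 82.7%, 58.7% and 79.0% of the bases. The same letters are in 44.6% of all 27305 promoters of this table and in 70.2% of those of tested protein-coding genes. TATAAA and TGANTCA, on either strand, are in none of the 3. Tested laminins that were not called hold GGGCGG too where they have an entry. LAMB1 has 4 matches at 71% GC, and LAMA3 and LAMB3 have 1 each, so these letters do not set apart the chains that fell. A match is a run of letters in this window and not a measured site.

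The adhesive and matricellular glycoproteins mostly overlapped between groups. FN1, fibronectin, a plasma and matrix protein that hepatocytes secrete, was the most abundant member of all at 535 RPKM. It had 10160, 8888 and 8778 CPM in siCON and 9289, 8302 and 9830 CPM in siDGk, so the groups overlapped, and its log2 fold change was −0.02 ± 0.07. THBS1 and SPARC, next in level at 17.3 and 7.93 RPKM, overlapped as well, with log2 fold changes of 0.13 ± 0.12 and 0.04 ± 0.18, and the sign of all 3 changed when a library was left out. THBS3, a pentameric thrombospondin, was the member of this group that was called. It had 2.68, 2.85 and 2.68 CPM against 6.74, 6.56 and 9.94 CPM, without overlap, at a log2 fold change of 1.50 ± 0.39. The call did not hold without siDGk replicate 3 (1.28), and 29.1% of its exon bases overlap exons of other genes on the opposite strand, so its counts are uncertain.

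Among the lysyl oxidases, which cross-link collagen, LOXL2 was called higher and LOXL4 and LOX lower. Of 5 genes, 4 were tested, 1 was higher and 2 lower (75% called, beside 14.0% of all genes). LOXL2 was at 13.7, 15.7 and 19.2 CPM in siCON and at 97.8, 78.5 and 79.6 CPM in siDGk. Its groups were far apart, at a log2 fold change of 2.41 ± 0.16 and an adjusted p of 2.6e-09 in edgeR's quasi-likelihood test with Benjamini-Hochberg adjustment. LOXL4 was at 103, 103 and 128 CPM against 65.6, 71.5 and 70.7 CPM, a log2 fold change of −0.68 ± 0.11. LOX itself was at 104, 109 and 102 CPM against 94.6, 68.1 and 56.4 CPM. It did not overlap, but siDGk replicate 1 lay near the controls, and the call at −0.52 ± 0.14 did not hold when siCON replicate 2 or 3 or siDGk replicate 2 or 3 was left out (−0.36 without siDGk replicate 3) or with shrunken fold changes. LOXL3 overlapped at 0.36 ± 0.19, and LOXL1 had 6 to 21 counts and was not tested. With siDGk replicate 3 alone 1 lysyl oxidase was higher and 2 lower, and without it 1 and 1. LOXL2 made up 4.24%, 4.55% and 5.03% of the 4 tested lysyl oxidases per length in siCON and 26.8%, 25.2% and 26.4% in siDGk.

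Among the MMPs, MMP7 and the membrane-bound MMP14 rose while MMP11 and the membrane-bound MMP15 fell. MMP7, matrilysin, a secreted protease of epithelial cells (chromosome 11, 102520508 to 102530750, minus strand), was at 3.06, 0.537 and 2.78 CPM in siCON and 13.7, 16.2 and 17.3 CPM in siDGk. The lowest siDGk library was above the highest siCON library, and the log2 fold change was 2.91 ± 0.44, with an adjusted p of 9.3e-05 in edgeR's quasi-likelihood test with Benjamini-Hochberg adjustment. Its promoter is shown as the called member with both a match to TGANTCA, the letters bound by AP-1, and to TATAAA, the TATA box, each searched on both strands and in capitals here; the matches do not overlap. It is the RefSeq sequence of chr11:102530698-102530997, minus strand, GRCh38.p14.
MMP7: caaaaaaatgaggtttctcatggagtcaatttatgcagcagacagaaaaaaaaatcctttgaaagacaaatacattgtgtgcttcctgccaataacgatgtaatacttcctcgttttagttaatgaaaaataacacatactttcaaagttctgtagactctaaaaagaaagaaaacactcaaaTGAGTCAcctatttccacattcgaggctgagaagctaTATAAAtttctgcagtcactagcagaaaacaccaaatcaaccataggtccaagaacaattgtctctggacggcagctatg
The AP-1 letters start at −67 and the TATA letters at −30 from the start. TGANTCA is in 7.76% of all promoters of the table and in 4.55% of those of tested protein-coding genes. It is in 5 of the 80 members with a promoter there. For TATAAA these are 12.0%, 5.45% and 12 of 80. Of the 9 MMPs with an entry, 3 hold TGANTCA and 4 hold TATAAA. MMP10 and MMP20, which were not tested, hold both as MMP7 does. Among the 4 members called higher that have an entry each motif was in 1, and among the 13 called lower each was in 0.

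MMP14, which cuts fibrillar collagen at the cell surface and activates other MMPs, was at 49.0, 40.9 and 40.2 CPM in siCON and 59.3, 73.7 and 75.5 CPM in siDGk. These groups did not overlap, and the log2 fold change was 0.68 ± 0.14. MMP15, the most abundant MMP at 60.8 RPKM, was at 312, 317 and 331 CPM against 222, 171 and 192 CPM, and fell by 0.71 ± 0.09 on the log2 scale. MMP14 thus made up 12.6%, 10.6% and 9.99% of the pair per length in siCON and 19.7%, 28.3% and 26.5% in siDGk. MMP11, stromelysin-3, was at 60.7, 69.9 and 71.2 CPM against 22.1, 26.9 and 20.0 CPM. It had no overlap and a log2 fold change of −1.55 ± 0.15, with an adjusted p of 4.9e-07 in edgeR's quasi-likelihood test with Benjamini-Hochberg adjustment. MMP1, the interstitial collagenase, had 2, 32 and 2 counts in siCON and 32, 172 and 21 counts in siDGk, a pattern held mostly by siDGk replicate 2. It was not called, but was under 6 of 14 alternatives, among them DESeq2, no count filter and the fit without siDGk replicate 3. MMP2, the type IV collagenase, was at 16.1 CPM in siDGk replicate 2 and at 1.92 to 4.30 CPM in the other 5 libraries. MMP9 had 19 counts in siDGk replicate 3 and 0 in the others, and MMP8, MMP12, MMP27 and MMP28 had none. Of 20 MMP genes, 9 were tested, 2 were higher and 2 lower (44.4% called, beside 14.0% of all genes), also with siDGk replicate 3 alone, against 3 and 2 without it.

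The inhibitors of these proteases were all expressed except TIMP4, which had no count. TIMP1, a secreted inhibitor that is induced in injured liver, was at 30.5, 42.7 and 38.1 CPM in siCON and 123, 122 and 138 CPM in siDGk. Every siDGk library was far above siCON, at a log2 fold change of 1.78 ± 0.13 and an adjusted p of 1.1e-08 in edgeR's quasi-likelihood test with Benjamini-Hochberg adjustment. TIMP3, which binds to the matrix and also inhibits ADAMTS proteases, was at 117, 133 and 118 CPM against 93.5, 75.8 and 88.7 CPM. It lay lower without overlap, at −0.51 ± 0.11, just past the fold threshold. That call did not hold without siCON replicate 2 (−0.44), without siDGk replicate 2 (−0.43), with siDGk replicate 3 alone, with shrunken fold changes or with no count filter. TIMP2, at 105, 124 and 97.6 CPM against 135, 132 and 133 CPM, was above siCON in each siDGk library but at 0.29 ± 0.10 under the fold threshold. Per length, TIMP1 made up 33.3%, 37.7% and 38.9% of the 3 TIMPs in siCON and 66.9%, 69.0% and 70.1% in siDGk, and at 88.2 RPKM it was the most abundant TIMP in siDGk. Its promoter (RefSeq, chrX:47582186-47582485, plus strand, GRCh38.p14) holds 2 matches to GGGCGG, in capitals, and none to TGANTCA or TATAAA.
TIMP1: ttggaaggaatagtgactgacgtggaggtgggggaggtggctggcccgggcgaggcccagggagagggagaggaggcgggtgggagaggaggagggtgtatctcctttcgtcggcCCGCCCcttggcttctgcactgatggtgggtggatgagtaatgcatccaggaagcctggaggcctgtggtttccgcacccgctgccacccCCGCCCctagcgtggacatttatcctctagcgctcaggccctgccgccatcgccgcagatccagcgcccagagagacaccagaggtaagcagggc
Among the 4 called-higher members with a promoter entry 3 hold GGGCGG, and among the 13 called lower 12 do. Their median GC content was 59.8% and 74.3%, beside 58.3% over all promoters of the table, 65.3% over those of tested protein-coding genes and 70.0% over the 45 tested members with an entry. Of these 45, 34 hold GGGCGG (75.6%), so part of the difference from all promoters is shared by tested members in general.

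In the ADAMTS family levels were low, at most 4.80 RPKM over all libraries, and 6 genes were counted but not tested. ADAMTS4, an aggrecanase that cuts cartilage proteoglycan, was at 7.14, 3.65 and 3.35 CPM in siCON and 17.9, 17.9 and 27.5 CPM in siDGk. The groups were separate, and the log2 fold change was 2.14 ± 0.31, with an adjusted p of 5.4e-05 in edgeR's quasi-likelihood test with Benjamini-Hochberg adjustment. ADAMTS7 had 4.62, 6.07 and 5.17 CPM against 1.36, 2.64 and 0.825 CPM. It was lower without overlap at −1.72 ± 0.57, but the call did not hold in 5 of the 6 fits that left out a library (all but that without siDGk replicate 2) or with no count filter. It stood at −2.67 with siDGk replicate 3 alone and at −0.80 with shrunken fold changes. ADAMTSL4, a protease-like protein without the protease domain that associates with fibrillin, had 23.5, 17.9 and 19.6 CPM against 12.4, 10.1 and 11.0 CPM. That change of −0.87 ± 0.22 was not called without siCON replicate 1 (−0.74) or with siDGk replicate 3 alone, and 14.4% of its exon bases overlap other genes. ADAMTSL2, the most abundant of the family at 4.80 RPKM, lay above siCON in each siDGk library, at 20.9 to 33.7 CPM against 15.4 to 19.8 CPM. Its log2 fold change of 0.60 ± 0.21 missed the threshold on the adjusted p and passed it under 6 of 14 alternatives. Of 23 genes in the family, 13 were tested, 1 was called higher and 2 lower (1 and 2 with siDGk replicate 3 alone, 1 and 1 without it). The share called was 23.1%, beside 14.0% of all genes, and the share called higher was near the 7.14% of all genes. ADAMTS3, ADAMTS8, ADAMTS20 and ADAMTSL1 had no count.

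The genes that mature collagen inside and outside the cell were called mainly lower, though most were not called. Of 25 listed, 21 were tested, 1 was called higher and 4 lower (1 and 5 with siDGk replicate 3 alone, 1 and 4 without it). The share called was 23.8%, beside 14.0% of all genes tested. There were 17 negative log2 fold changes, beside 7155 of 14476 over all genes, and the median was −0.28, beside 0.0068. PCOLCE, which enhances removal of the procollagen C-propeptide, was at 44.7, 47.7 and 40.1 CPM in siCON and 10.5, 8.58 and 9.71 CPM in siDGk. The groups were far apart, at a log2 fold change of −2.20 ± 0.18. Its relative PCOLCE2 fell from 2.09, 1.88 and 5.65 CPM to 0.380, 0 and 0 CPM, a call that did not hold without siCON replicate 3. No fold is given for PCOLCE2, since its siDGk level rests on 7 counts in replicate 1. PLOD1, a lysyl hydroxylase, and P3H3, of the prolyl 3-hydroxylase family, were lower at −0.73 ± 0.08 and −0.71 ± 0.11. COLGALT2, which adds galactose to hydroxylysine of collagen, was the gene that rose, from 19.2, 12.7 and 25.3 CPM to 78.9, 84.0 and 90.9 CPM. The collagen chaperone gene SERPINH1 overlapped between groups at 0.07 ± 0.09, and was named after its value was seen.

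Other matrix components that bind collagens and laminins were called in both directions. Of 45 listed, 31 were tested, 8 were higher and 7 lower (6 and 7 with siDGk replicate 3 alone, 10 and 7 without it). The share called was 48.4%, beside 14.0% of all genes (7.14% higher and 6.90% lower), and the median was −0.087, beside 0.0068. SPOCK1, a testican proteoglycan, had no count in siCON and 2.34, 4.11 and 3.35 CPM in siDGk, at least 16.1-fold higher when siCON is set at 3 counts in each library. Its relative SPOCK2 rose from 261, 290 and 268 CPM to 826, 773 and 847 CPM (log2 fold change 1.58 ± 0.08). LTBP1, which anchors latent TGF-beta in the matrix, rose from 1.88, 3.38 and 1.92 CPM to 15.2, 15.5 and 20.2 CPM. For all 3 genes the groups did not overlap. BGN and ECM1 were higher at 1.69 ± 0.44 and 1.49 ± 0.44, though BGN was not called without siDGk replicate 1 or with siDGk replicate 3 alone, and ECM1 not without siCON replicate 3 or siDGk replicate 3 (2.14 with siDGk replicate 3 alone). POSTN and EFEMP1, with 21 and 130 and with 27 and 251 counts in siDGk replicates 1 and 2, had at most 2 counts in the other 4 libraries, like the collagens held by those libraries. VTN, the liver plasma protein vitronectin, was lower at −1.71 ± 0.09. Named after their values were seen, NID1 and HSPG2, which link laminin and collagen IV networks in the basement membrane, were lower as well, at −1.22 ± 0.09 and −0.77 ± 0.08.

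In the wider set of proteases and inhibitors at the cell surface, 29 of 32 genes were tested, 4 were higher and 7 lower. The share called was 37.9%, beside 14.0% of all genes (7.14% higher and 6.90% lower), and the median was −0.13, beside 0.0068. With siDGk replicate 3 alone 5 were higher and 8 lower, and without it 7 and 6. PLAU, urokinase, the activator of plasminogen, rose from 4.40, 0.591 and 1.34 CPM to 16.0, 18.6 and 24.8 CPM. Its receptor gene PLAUR rose from 4.40, 1.13 and 4.31 CPM to 11.1, 12.4 and 19.8 CPM. Neither overlapped, at log2 fold changes of 3.19 ± 0.47 (4.46 without siCON replicate 1) and 2.16 ± 0.42. SERPINE2, an inhibitor of urokinase and thrombin, and ADAM19 rose too, by 1.52 ± 0.10 and 2.52 ± 0.17. The serine protease gene TMPRSS2 and the meprin gene MEP1A fell, at −3.32 ± 0.88 and −2.65 ± 0.51. TMPRSS2 was not called without siCON replicate 3 and was at −4.66 without siDGk replicate 1, and MEP1A was at −1.97 without siCON replicate 2. With shrunken fold changes TMPRSS2 was at −0.95 and MEP1A at −1.28, and PLAU and PLAUR were at 1.72 and 1.24.

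Of 30 receptors for matrix proteins, 24 were tested, 4 were higher and 4 lower (3 and 3 with siDGk replicate 3 alone, 6 and 4 without it). The share called was 33.3%, beside 14.0% of all genes (7.14% higher and 6.90% lower), and the median was 0.18, beside 0.0068. ITGA2, the alpha-2 chain of a collagen-binding integrin, rose from 95.0, 103 and 100.0 CPM to 241, 225 and 262 CPM. ITGA10, from another collagen-binding integrin, rose from 7.03, 4.08 and 6.71 CPM to 33.3, 42.6 and 38.5 CPM. Both were higher in every siDGk library, at 1.29 ± 0.09 and 2.69 ± 0.23. ITGB4, part of a laminin-binding integrin, was higher at 0.68 ± 0.16, a call not held with siDGk replicate 3 alone. BCAM, a receptor for the laminin alpha-5 chain, fell from 345, 329 and 328 CPM to 181, 136 and 139 CPM. DDR1, a receptor tyrosine kinase for collagen, and CD36, a thrombospondin receptor, were lower at −0.61 ± 0.09 and −1.12 ± 0.27. So LAMA5 and its receptor gene BCAM both fell, but the laminin-binding ITGB4 rose. Of the collagen receptors named here, ITGA2 and ITGA10 rose and DDR1 fell.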

How the data were processed

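RNA of 3 siCON and 3 siDGk cultures of HepG2 was compared, with groups and replicate numbers from the sample titles, since the treatment label names the control siRNA in all 6 samples. The authors deposited whole read counts per gene, not normalized. Per the submitters' processing notes and methods, reads were aligned to GRCh38 with STAR 2.6.1 and counted with featureCounts 1.6.5 at its defaults apart from a cutoff on quality. The defaults ignore strand and leave out reads that overlap several genes or map to several places; counts of overlapping genes are therefore uncertain. Whether the libraries kept strand is not given in the sources used here.

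Counts were filtered with filterByExpr (minimum count 10), scaled by TMM and compared by a robust quasi-likelihood fit in edgeR 4.0.16 (R 4.3.3) over 14476 genes. An SE is the size of a log2 fold change over the square root of its F. RPKM used positions and lengths of Gencode on GRCh38, where the length covers every annotated exon of a gene and can exceed that of its transcripts. Ranks and shares per length depend on it. The scripts were tested on simulated data. Named genes were DGUOK, every called member, the 3 most abundant members of each role per length, the 6 largest called changes of each list, and leading or absent markers. All others, such as LAMB1, COL1A2, MMP1, partner chains, untested or uncounted members, further markers and the genes held by siDGk replicates 1 and 2, were named after their values were seen. The members and lists were chosen with earlier results of these data known. Of the members, 80 had an entry in the promoter table.

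Other settings tried were DESeq2 1.42.0 (fold changes unshrunken or shrunken), scaling by RLE or upper quartile, no filter or a mean CPM of at least 1, replicate number as a block, no fold threshold, and each library left out. Comparing siDGk replicate 3 alone with siCON was added after seeing the data, as were counts per family. Totals of 10527216 to 21334876 counts limit precision for genes with few counts, and limits from a count of 0 cover counting error only.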

Additional observations from a re-analysis of the deposited data

How the results depend on the processing

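DGUOK stayed lower and called in all 14 alternatives, between −2.97 and −2.25, and between −2.73 and −2.42 with a library left out. The number of members called higher, 7, was 12 with DESeq2 and 14 with no count filter. Both fitted 24670 genes, of which 8.65% and 8.8% were called. Of the 5 members gained as higher with DESeq2, 3 had been removed by the filter (COL3A1, COL5A1 and COL8A1) and 2 had been tested (ADAMTS9 and MMP1), and of the 7 gained with no filter 4 had been removed and 3 tested. For the genes already tested, the cause of the gain was not tested. The number called higher ran from 7 to 14 with a library left out, the highest without siDGk replicate 3, where COL1A2, COL3A1, COL4A1, COL4A2, COL5A1, COL6A3, LAMA4 and MMP1 were called. With DESeq2 and with no filter the median log2 fold change of all fitted genes was 0.13 and 0.14, and that of the members 0.30 and 0.32. The number called lower, 15, stayed between 11 and 15. Shrunken fold changes were nearer to 0 for called genes of few counts, such as MMP7 (1.63), ADAMTS4 (1.52), COL2A1 (−0.88), LTBP1 (1.94), BGN (0.93) and ECM1 (0.82), all still called. On the adjusted p alone, with no fold threshold, 11 collagen maturation genes (5 otherwise) and 13 matrix receptors (8 otherwise) passed.

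The replicate numbers did not pair the samples (correlations of 0.024, 0.0165 and −0.0023), and with the replicate block 10 members were called higher and 15 lower, 22 of them shared with the fit without it. Changes near 0 turned sign, and the cause was not tested. FN1 was at 0.062 without siCON replicate 1, 0.044 without siDGk replicate 2 and 0.080 with siDGk replicate 3 alone. THBS1 was at −0.017 without siDGk replicate 2 and −0.15 with siDGk replicate 3 alone, and SPARC was at −0.0095 without siCON replicate 1, −0.18 without siDGk replicate 2 and −0.37 with siDGk replicate 3 alone. Libraries left out gave −0.077 to 0.062 for FN1, −0.017 to 0.25 for THBS1 and −0.18 to 0.21 for SPARC.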
